A study of Mus musculus with 36 samples.

Results

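The effect of deleting Casp1, the gene for caspase-1, was measured in the intestine of mouse embryos that carried the Casp8 D387A allele and lacked Cflar and Mlkl. The comparison holds 6 of the 36 RNA sequencing libraries of the study, chosen by their labelled genotype alone. All 6 came from untreated E18.5 embryos with a Casp8 D387A knock-in and knockouts of Cflar and Mlkl. In 3 of them Casp1 was intact (called Casp1-intact embryos below), and the other 3 had a Casp1 knockout in addition (called Casp1-/- embryos). They were compared also with 3 Mlkl KO intestines of the same set, which have wild-type Casp8, Cflar and Casp1, and with 3 against 3 intestines with and without Casp1 on a Casp8 C362A KI Mlkl KO background. Further genotypes of 3 embryos each entered the fits only through the choice of genes tested, the normalization and the estimate of spread. They were the Casp8 D387A KI alone and the Casp1-/- genotype with either Ifnar1 or Fadd deleted as well. In the C362A set they were Mlkl KO and the Casp8 C362A KI without Cflar and Mlkl. All alleles were in the germline, so every cell of each embryo carried them, and a value from the tissue cannot tell fewer cells of a type from less RNA per cell. The titles of the Casp1-intact libraries open with one number and those of the Casp1-/- libraries with another, so what that number stands for and the Casp1 genotype cannot be told apart. The Mlkl KO libraries of the set carry the number of the Casp1-intact ones, so the same holds for the Casp1-/- embryos against Mlkl KO.

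Caspase-1 is the protease of inflammasomes, the complexes that sensors such as NLRP3, pyrin or NAIP-NLRC4 build with the adaptor ASC. It matures the cytokines IL-1β and IL-18 and cleaves gasdermin D, whose fragment opens pores in the plasma membrane. Caspase-8 with the D387A change cannot cleave itself between its subunits, cFLIP (the product of Cflar) is its partner without protease activity, and MLKL carries out necroptosis. The E18.5 intestine has villi lined by absorptive enterocytes, which make the hydrolases, transporters and lipid carriers needed from birth on, with few immune cells in normal development.

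The 6 libraries held between 19871593 and 21766515 reads on genes, and 18360 genes had enough reads to be tested. Levels are given as RPKM, reads scaled to the length of the gene and the size of the library, computed from the deposited counts. Of the Casp1-/- libraries, embryo 3 stood apart. The variance between it and embryos 1 and 2 was 69.2 and 70.8 times the counting noise, against 13.2 between embryos 1 and 2 and 5.83 to 29.6 in the other pairs of the genotypes used here. Results that moved most with it are therefore given with and without embryo 3, which leaves 2 Casp1-/- libraries against 3. The intestinal identity of the tissue held in all 6: Epcam, a surface protein of all epithelia, was between 472 and 687 RPKM, and Cdx1, a transcription factor of the intestine, between 143 and 201. The liver gene Alb ranged from 0.0393 to 15.6 RPKM over the same embryos.

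The deleted gene was read first. Casp1 (chr9:5298517-5307265, GRCm38) was at 34.2, 28.4 and 30.4 RPKM in the Casp1-intact embryos and at 0, 0.0901 and 0.127 in the Casp1-/- embryos, a log2 fold change of -8.68 ± 0.275 (SE, n = 3 against 3, adjusted p = 1.03e-12 by the quasi-likelihood test of edgeR after Benjamini-Hochberg adjustment), or -9.30 without embryo 3. The loss was seen in every labelled knockout. Casp8 was at 42.4, 37.2 and 42.4 RPKM with Casp1 and at 25.8, 24.5 and 35.5 without it, a log2 fold change of -0.51 that did not reach the size threshold used below. Reads on Cflar (4.3 to 4.9 against 5.38 to 6.04 RPKM) and Mlkl remained in all 6 although both were deleted, and nothing in the sources used here places these reads relative to the deleted parts, so they do not check the labels. Mlkl was at 13.2, 11.1 and 13.4 RPKM in Casp1-intact embryos and at 3.13, 3.72 and 23 in the Casp1-/- embryos, so that embryo 3 lay above and embryos 1 and 2 below all 3 of them, and it was called lower only without embryo 3 (-1.88).

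Across the genome, 13.4% of the tested genes changed with the loss of Casp1, when a change was called at an adjusted p below 0.05 and a log2 fold change beyond 1 in either direction. Of these 2459 genes, 1631 were higher (8.88% of all tested) and 828 lower (4.51%) in Casp1-/- embryos. The groups did not overlap for 2322 of the called genes, and for 53.2% of all genes tested, and 1756 kept the call when each of the 6 libraries was left out in turn. Without embryo 3, 1734 genes were higher (9.44%) and 1160 lower (6.32%): 795 genes were lower in both fits, 33 only with embryo 3 and 365 only without it. The median log2 fold change of all tested genes was 0.03, and 0.02 without embryo 3, so the lists below can be read against a center near zero.

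**Figure D1:**
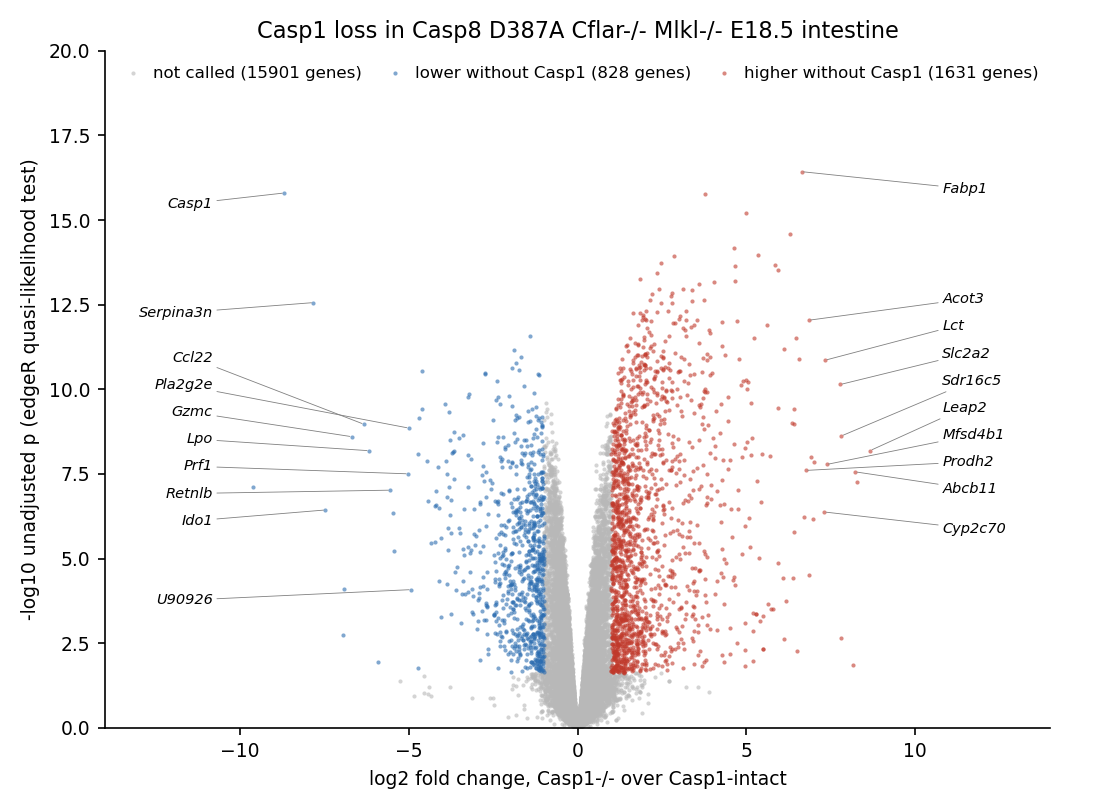
Each point is 1 of the 18360 tested genes, with its log2 fold change (Casp1-/- over Casp1-intact, n = 3 against 3) on the x axis and the negative log10 of its unadjusted p on the y axis. The 828 genes called lower and the 1631 called higher are colored, and the genes with the largest changes named in the text are labelled, with Casp1 at -8.68.

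After Casp1 itself, the deepest fall among genes of at least 1 RPKM that held in every leave-out was that of Serpina3n, a serine protease inhibitor of the acute-phase response. It was at 16.7, 10.4 and 15 RPKM in the Casp1-intact embryos and at 0, 0.0653 and 0.115 in the Casp1-/- embryos (log2 fold change -7.82 ± 0.389, edgeR adjusted p = 1.78e-10). The groups were far apart, and every Casp1-/- embryo was below the Mlkl KO mean of 0.222 ± 0.0442 (SD, n = 3). Ido1, which breaks down tryptophan, had 657 reads in the 3 Casp1-intact embryos together and 3 in the Casp1-/- embryos, a ratio of 202.5 with a 95% interval of 68.98 to 984.3 that covers counting error only. Gzmc, a granzyme of cytotoxic lymphocytes, had 371 reads against 3, all in embryo 3 (ratio 114.3, interval 38.82 to 556.9). The fitted log2 fold changes of Ido1 and Gzmc were -7.46 and -6.68 with all embryos and -8.34 and -9.89 without embryo 3. The chemokine Ccl22 (4.95, 3.37 and 8.93 against 0.0615, 0 and 0.151 RPKM), the peroxidase Lpo (2.94, 3.5 and 1.93 against 0, 0.0154 and 0.0978) and the goblet cell product Retnlb (14.7, 7.65 and 18.9 against 0.131, 0 and 0.755) fell by 6.32, 6.17 and 5.54 on the log2 scale. All of these falls were seen in each Casp1-/- embryo, and without embryo 3 the fitted values were -8.63 for Serpina3n, -7.44 for Ccl22, -8.18 for Lpo and -7.56 for Retnlb, which was at -4.95 without Casp1-/- embryo 2. The 10 deepest falls under the naming rule were completed by Prf1, the pore-forming protein of killer cells (-5.02), the secreted phospholipase Pla2g2e (-4.99) and the transcript U90926 (-4.93, or -6.18 without embryo 3, where Prf1 was at -5.96).

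The highest rise under the same rule was that of Leap2, a liver and enterocyte peptide that opposes ghrelin at its receptor. Leap2 was at 0, 0.337 and 0.0753 RPKM in Casp1-intact embryos and at 63.4, 65.9 and 46 in Casp1-/- embryos (log2 fold change 8.66 ± 0.817, edgeR adjusted p = 2.33e-07, or 10.20 without Casp1-intact embryo 2), with 283 ± 33.4 in Mlkl KO embryos. Thus the 3 Casp1-/- embryos were high and alike, and still below the Mlkl KO level (log2 fold change -2.27 against it). Abcb11, a bile salt export pump, rose from 0, 0.0174 and 0.0311 to 6.1, 8.57 and 1.05 RPKM. Fabp1, the liver-type fatty acid binding protein of enterocytes, rose from 37.2, 37.7 and 34.3 to 3521, 4757 and 2575 RPKM (log2 fold change 6.63 ± 0.193). The groups did not overlap for either gene, and embryo 3 was the lowest of the Casp1-/- embryos for both. Lct, the lactase of the suckling gut, rose from 0.958, 0.297 and 0.997 to 112, 199 and 54.5 RPKM (7.33), and Slc2a2, the glucose exporter GLUT2, from 0.0155, 0.0562 and 0.0287 to 7.25, 11.8 and 3.42 (7.78). The acyl-CoA thioesterase Acot3 (6.84) and the hydroxyproline dehydrogenase Prodh2 (6.76) rose as well. Sdr16c5, a retinol dehydrogenase, had 3 reads against 711 (ratio 256.4, interval 87.37 to 1246), the transporter gene Mfsd4b1 3 against 525 (ratio 189.3, interval 64.42 to 920.9) and the cytochrome P450 gene Cyp2c70 1 against 206 (ratio 222.8, interval 39.55 to 8843).

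**Figure D2:**
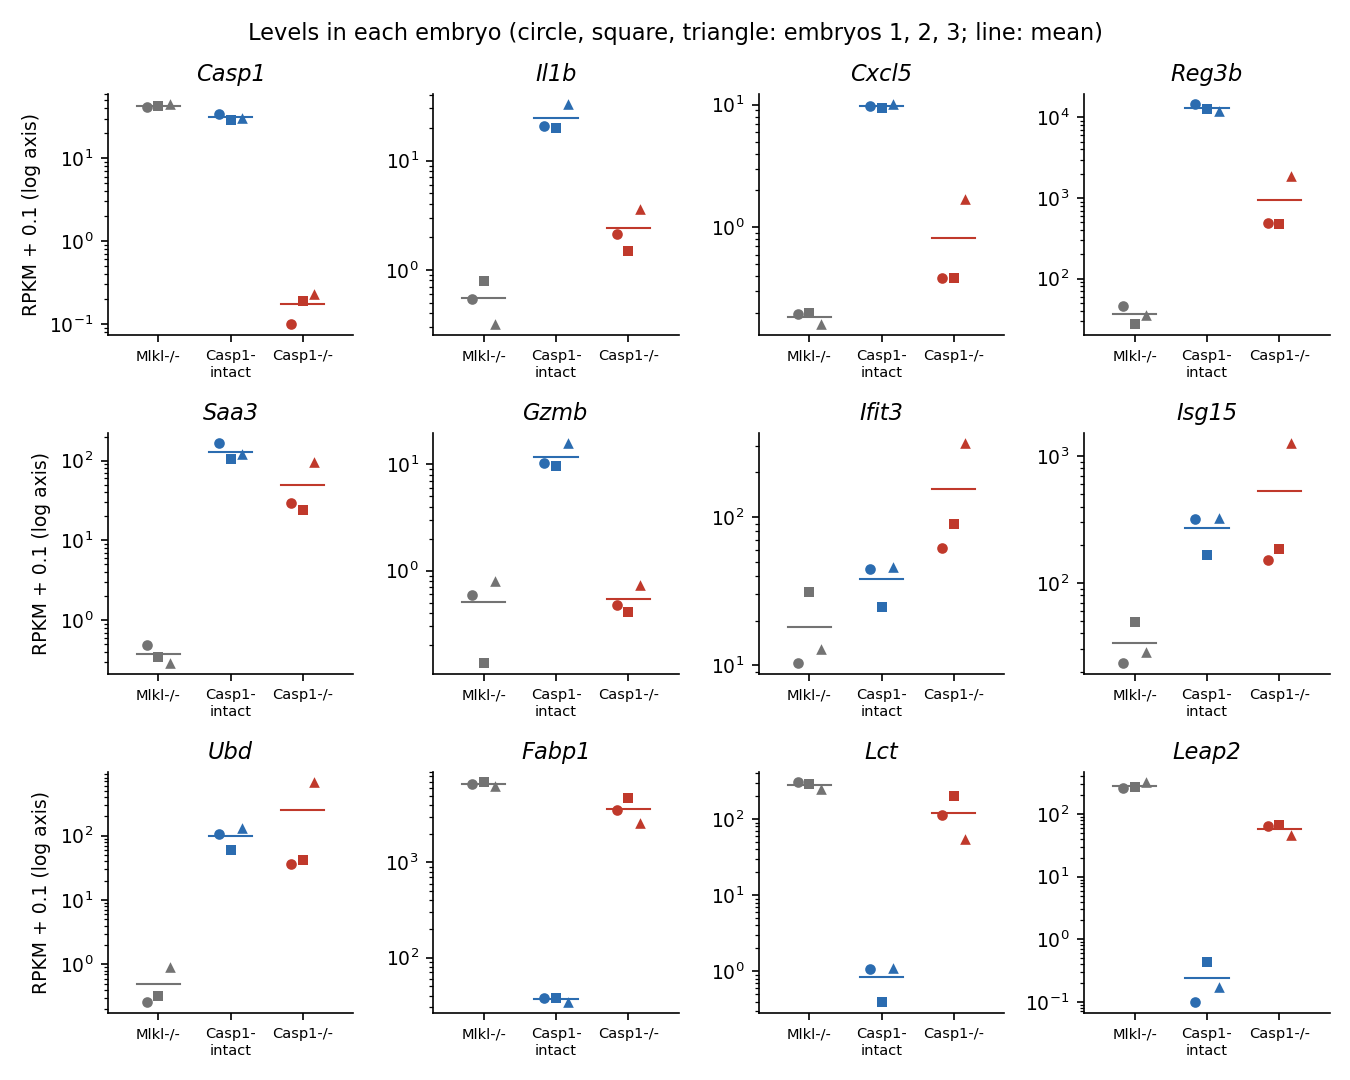
RPKM of 12 genes in each embryo on a log axis after adding 0.1, for Mlkl KO, Casp1-intact and Casp1-/- intestine. Circles, squares and triangles are embryos 1, 2 and 3 and the line is the mean: Il1b, Cxcl5, Reg3b and Gzmb are lower in all 3 Casp1-/- embryos, Fabp1, Lct and Leap2 are higher in all 3, and Isg15 and Ubd are highest in the triangle of embryo 3 (1257 and 672 RPKM).

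Promoter sequence was read for the genes with a RefSeq window, 250 bases before to 50 after the start of the gene (GRCm38.p6), which matched 12582 of 18356 tested gene symbols. A motif of NF-κB, GGG followed by any 2 bases and TTTCC on either strand, was present in 4.01% of the windows of genes called lower (27 of 674), in 1.51% of those of genes called higher (21 of 1392) and in 1.7% of all 16024. The HNF4 motif, CAAAGNCCA on either strand, named for a transcription factor of liver and enterocytes, was present in 1.19% of windows of genes called lower (8), 4.24% of those called higher (59) and 1.77% of all. The interferon response motif, GAAA, any 2 bases and GAAA on either strand, was in 6.23% of lower windows (42), 3.38% of higher windows (47) and 3.17% of all windows. These counts describe letters and carry no test. The stretches before the start shown next were picked, after their values were seen, from genes that fell (Serpina3n, Cxcl3, Il6, Saa3) or rose (Ifit3, Cyp2c70, Alpi) and whose window holds a motif, so that a reader can see it in place. Each runs 5′ to 3′ on the strand of its gene and ends at the base before the start, which for Saa3 and Cyp2c70 is that of the GENCODE gene, 24 and 47 bases before the RefSeq start. The position of a motif is that of its first base counted back from the end of the printed stretch, and capitals mark the motif, which for Ifit3 is on the opposite strand at both sites.
Serpina3n, chr12:104406508-104406707, plus strand, NF-κB motif at 171 bases: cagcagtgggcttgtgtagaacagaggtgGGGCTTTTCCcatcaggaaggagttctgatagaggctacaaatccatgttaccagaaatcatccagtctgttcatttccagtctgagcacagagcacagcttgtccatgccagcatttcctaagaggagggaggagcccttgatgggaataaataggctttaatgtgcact
Cxcl3, chr5:90785901-90786100, plus strand, NF-κB motif at 73 bases: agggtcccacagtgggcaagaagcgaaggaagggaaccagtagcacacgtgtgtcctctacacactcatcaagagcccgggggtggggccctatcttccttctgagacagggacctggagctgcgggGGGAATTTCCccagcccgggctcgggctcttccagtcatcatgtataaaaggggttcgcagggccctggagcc
Il6, chr5:30012914-30013113, plus strand, NF-κB motif at 44 bases: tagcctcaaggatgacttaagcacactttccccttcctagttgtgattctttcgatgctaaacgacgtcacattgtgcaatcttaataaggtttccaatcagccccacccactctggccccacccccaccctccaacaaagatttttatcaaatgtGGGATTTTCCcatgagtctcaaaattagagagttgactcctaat
Saa3, chr7:46715701-46715876, minus strand, interferon response motif at 101 bases: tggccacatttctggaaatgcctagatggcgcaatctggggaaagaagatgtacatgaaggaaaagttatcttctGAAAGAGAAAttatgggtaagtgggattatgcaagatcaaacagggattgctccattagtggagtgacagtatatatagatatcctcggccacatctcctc
Ifit3, chr19:34583329-34583528, plus strand, interferon response motifs at 156 and 122 bases: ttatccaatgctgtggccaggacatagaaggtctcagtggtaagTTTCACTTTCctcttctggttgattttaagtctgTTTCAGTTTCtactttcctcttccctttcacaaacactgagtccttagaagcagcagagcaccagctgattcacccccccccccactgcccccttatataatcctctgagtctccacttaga
Cyp2c70, chr19:40187334-40187486, minus strand, HNF4 motif at 17 bases: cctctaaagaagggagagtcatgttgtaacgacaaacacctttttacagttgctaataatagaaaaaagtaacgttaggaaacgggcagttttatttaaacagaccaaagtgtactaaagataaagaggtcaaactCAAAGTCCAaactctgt
Alpi, chr1:87101607-87101806, minus strand, HNF4 motif at 19 bases: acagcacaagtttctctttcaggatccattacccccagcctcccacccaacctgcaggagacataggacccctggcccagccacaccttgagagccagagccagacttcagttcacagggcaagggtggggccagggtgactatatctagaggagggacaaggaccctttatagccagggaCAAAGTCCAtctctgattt

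The remaining results are ordered by role, beginning with the inflammasome. Of 22 tested genes of inflammasomes and pyroptosis, 5 fell and 3 rose (median log2 fold change 0.27, or 5, 2 and 0.08 without embryo 3). The 5 that fell were Il1b, Mefv, Nlrp3, Casp12 and Casp1, whose fall is the deletion itself. Il1b, the cytokine that caspase-1 matures, was at 20.5, 19.6 and 32.5 RPKM in Casp1-intact embryos and at 2.01, 1.39 and 3.48 in Casp1-/- embryos (log2 fold change -3.40 ± 0.299, edgeR adjusted p = 1.06e-07), with no overlap and all 3 Casp1-/- embryos above the Mlkl KO mean of 0.455. The sensor genes Nlrp3 (0.671, 0.672 and 0.788 against 0.359, 0.31 and 0.294 RPKM) and Mefv (0.355, 0.64 and 1.12 against 0.277, 0.205 and 0.232) were low throughout and fell by 1.14 and 1.57 on the log2 scale. Naip5, a sensor of bacterial flagellin, rose in every embryo, from 8.27, 7.63 and 7.34 to 25.1, 31.7 and 24.1 RPKM (1.80), and its relative Naip6 rose by 1.33, although reads may be shared between these near-identical paralogs. Gsdme, another gasdermin, rose by 1.04 with embryo 3 and was at 0.52 without it, where it was not called. The pore protein Gsdmd (132, 127 and 139.6 against 99.5, 125 and 217), the adaptor Pycard (53.8 to 62 against 71.5 to 87.7) and the cytokine Il18 (22.7, 19.4 and 15 against 29.3, 24.5 and 39.6) were not called.

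In the IL-1 family 8 of 16 tested ligands, receptors and decoys fell and 2 rose, with a median of -0.88, and without embryo 3 the count was 10 lower and 2 higher with a median of -1.33. Il1r2, the decoy receptor for IL-1, was at 14.6, 15.2 and 20.1 RPKM with Casp1 and at 0.897, 0.507 and 2.22 without it (-3.79 ± 0.34, or -4.56 without embryo 3), on both sides of the Mlkl KO mean of 0.923. Il33, the alarmin of epithelium and stroma, fell from 15.2, 14.1 and 18.6 to 5.02, 3.33 and 5.6 RPKM (-1.78), and none of the Casp1-/- embryos reached the Mlkl KO mean of 6.1. The members that rose were Il1a and Sigirr. Il1a, a cytokine that is active without caspase-1, rose from 2.17, 1.36 and 2.92 to 5.73, 6.44 and 19.6 RPKM (2.29 ± 0.394, edgeR adjusted p = 0.00014), highest in embryo 3 and still called without it (1.495). Sigirr, an inhibitory receptor of the family, rose from 8.8, 9.95 and 8.01 to 20.8, 23.1 and 20.3 RPKM (1.26). Il36b and Il36g had too few reads to be tested.

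Among genes that attract and sustain neutrophils 4 of 9 were lower and 1 higher, with a median of -1.83 (6 lower, 1 higher and -3.01 without embryo 3). Cxcl5 was at 9.65, 9.25 and 9.95 RPKM in Casp1-intact embryos and at 0.289, 0.285 and 1.6 in Casp1-/- embryos (-3.74 ± 0.444, edgeR adjusted p = 3.17e-06), and its value without embryo 3 was -5.05. Cxcl3 (1.53, 1.67 and 2.16 against 0.0447, 0.0885 and 0.141), Ppbp (1.79, 1.28 and 2.1 against 0.378, 0.457 and 0.396) and their receptor Cxcr2 (0.595, 0.777 and 2.35 against 0.0746, 0.133 and 0.203) fell by 4.22, 2.06 and 3.18, the last being -2.32 without Casp1-intact embryo 3. The groups did not overlap for these 4. Other ligands of the same receptor differed from them. Cxcl1 was at 7.2, 14.5 and 7.13 RPKM against 1.34, 1.04 and 10.2, overlapping only through embryo 3, and it was called lower without it (-3.01). Cxcl2 was at 2.72, 3.34 and 3.5 against 2.37, 1.81 and 7.28, not called in either fit, and 6.59 above Mlkl KO on the log2 scale (5.73 without embryo 3). The growth factor gene Csf2 rose from 0.486, 0.224 and 0.15 to 0.796, 1.18 and 0.894 RPKM (1.73, or 2.33 without Casp1-intact embryo 1). Csf3 (0.55, 0.759 and 0.141 against 0, 0.0318 and 0.371) was not called in the main fit. It was called lower without embryo 3 (-4.59) and in other fits given below.

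Among CC chemokines, 7 of 15 fell and 1 rose (median -0.87, or 8, 0 and -2.19 without embryo 3). Ccl22, given above, fell furthest. Ccl7, which draws monocytes, fell from 12.4, 14.5 and 16.1 to 1.48, 1.74 and 4.94 RPKM (-2.40 ± 0.348, or -3.15 without embryo 3). Ccl20, an epithelial chemokine for CCR6-bearing cells, was the one that rose, from 28, 24 and 19.3 to 40.5, 40.8 and 90.7 RPKM (1.27), and without embryo 3 its value was 0.78 and below the threshold. Ccl5, a T cell chemokine, was at 9.66, 10.1 and 14.9 RPKM against 2.14, 1.61 and 15.4. Embryo 3 was above and embryos 1 and 2 below all the Casp1-intact embryos. Ccl5 was not called in the main fit but was called lower without embryo 3 (-2.62) and under another setting given below. Ccl11 (43 to 56 against 38.6 to 45.4) and Ccl25 (83.8 to 119.8 against 98.8 to 148), which are made by stroma and small intestinal epithelium, overlapped and were not called.

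Many markers of neutrophils and of T and NK cells fell as well, and the part of white blood cells in the results was not tested. The neutrophil markers share genes with other lists, among them Cxcr2 and Mmp8. Of 13 tested neutrophil markers 7 fell and 1 rose (median -1.71), and their summed level was 73.6 to 261 RPKM in Casp1-intact and 18.2 to 53.5 in Casp1-/- embryos. The calprotectin genes S100a8 (33.6, 27.8 and 97.3 against 4.12, 5.73 and 10.7 RPKM) and S100a9 (44.4, 30.9 and 129 against 6.18, 8.78 and 15.4) fell by 2.95 and 2.75 (-2.17 and -1.90 without Casp1-intact embryo 3), with a wide spread among Casp1-intact embryos and no overlap. The surface marker Ly6g fell from 1.7, 1.61 and 1.95 to 0.145, 0 and 0.354 RPKM (-3.38, or -4.50 without embryo 3). The one marker that rose, Ltf, did so through embryo 3 alone (4.76, 2.41 and 3.64 against 3.08, 3.53 and 20), and Ltf is also made by epithelia. The granule protease genes Elane and Ctsg had at most 5 reads in each of the 6 libraries.

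Of 11 tested T and NK cell markers 6 fell and none rose (median -1.30, and -1.19 without embryo 3), and their summed level was 33.4 to 48.4 RPKM against 8.73 to 10.7. The killing genes Gzmb (10.1, 9.49 and 15.6 against 0.38, 0.313 and 0.631 RPKM, log2 fold change -4.73 ± 0.453) and Gzma (15.3, 11.6 and 19.7 against 1.31, 1.65 and 2.32, -3.14) fell in every embryo. Prf1 was at 1.09, 1.3 and 1.28 against 0.0352, 0 and 0.0738. The receptor chain Il2rb, shared by NK and memory T cells, fell from 1.66, 1.54 and 2.01 to 0.686, 0.775 and 0.616 RPKM (-1.32). By contrast the T cell receptor constant gene Trac was at 4.18, 5.09 and 3.97 RPKM against 4.18, 4.68 and 4.04 (-0.03 ± 0.241, not called), close to the Mlkl KO mean of 5.13. The genes for CD3ε, CD3δ and CD8α had at most 8 reads in any of the 6 libraries and were not tested.

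Macrophage and monocyte markers went both ways, with 3 of 16 lower and 2 higher (median -0.34, or 5, 2 and -0.60 without embryo 3, where Cd68 and Fcgr1 were lower as well). Cd14, a receptor for bacterial lipopolysaccharide, fell from 14.1, 14.8 and 15.7 to 2.86, 2.69 and 6.55 RPKM (-1.88 ± 0.28). The other genes that fell were Itgam, an integrin of myeloid cells, and Ly6c2, a surface protein of monocytes. Csf1r, the growth factor receptor of macrophages, rose from 14, 13.2 and 19.6 to 37.3, 38 and 68.2 RPKM (1.61 ± 0.187, edgeR adjusted p = 2.45e-06), and the chemokine receptor Cx3cr1 rose from 2.33, 2.14 and 2.43 to 5.83, 5.46 and 6.16 (1.34). The groups did not overlap for either gene. The complement gene C1qa (83.3, 86.6 and 98.9 against 61, 60.8 and 102) and the lysozyme gene Lyz2 (68.9, 64.5 and 89.3 against 68.7, 60.6 and 73.6) were not called, and both remained above their Mlkl KO means of 45.5 and 20.9 RPKM in all 6.

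Of 21 tested genes of a list named epithelial defense, which also holds the myeloid genes Acod1 and Marco, 14 fell and none rose. The median was -2.00, and without embryo 3 the count was 18 and the median -3.34. Reg3b, a secreted C-type lectin that binds bacteria, was at 14462, 12672 and 11844 RPKM in Casp1-intact embryos, at 489, 471 and 1852 in Casp1-/- embryos (-3.79 ± 0.424, edgeR adjusted p = 1.62e-06) and at 36 ± 9.15 (SD, n = 3) in Mlkl KO embryos. Reg3g followed, with 6737, 6912 and 5633 against 153, 158 and 744 RPKM (-4.19) and a Mlkl KO mean of 4.24. Both groups were apart for both genes, and the Casp1-/- embryos remained above Mlkl KO by 4.70 and 6.37 on the log2 scale. Without embryo 3 the changes of Reg3b and Reg3g were -4.76 and -5.37, and the distances to Mlkl KO 3.74 and 5.19. The related Reg2 was at 0.309, 0.512 and 2.06 RPKM with Casp1 and at 0 in all 3 Casp1-/- embryos, at least 15.1-fold lower when the Casp1-/- embryos together are set to 3 reads.

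Saa3, an acute-phase apolipoprotein on the same list, fell from 164, 104 and 120.2 to 29.2, 23.8 and 96.7 RPKM (-1.37, or -2.29 without embryo 3), where embryo 3 approached the lowest Casp1-intact embryo, against a Mlkl KO mean of 0.274. The peroxide-generating oxidase Duox2 fell from 65.3, 69.3 and 63.1 to 1.11, 0.853 and 14.5 RPKM (-3.59), and Nox1, a superoxide-generating oxidase, from 15.7, 17.3 and 15.1 to 1.53, 1.65 and 8.91 (-2.00). In both, embryo 3 was far above the other Casp1-/- embryos, and without it the values were -6.07 for Duox2 and -3.34 for Nox1. Nos2, the inducible nitric oxide synthase, was at 41.2, 40.3 and 25.6 against 8.17, 7.21 and 37.1, which overlapped through embryo 3. Nos2 was not called in the main fit but was called lower without embryo 3 (-2.21) and in other fits given below. Acod1, the itaconate enzyme of activated myeloid cells, fell from 1.71, 1.41 and 2.13 to 0.121, 0.171 and 0.672 RPKM (-2.46, or -3.56 without embryo 3). Marco, a macrophage scavenger receptor, was lower in each Casp1-/- embryo (12.1, 9.87 and 9.86 against 6.12, 5.58 and 4.73) by a log2 fold change of -0.95, just short of the threshold, and was 6.22 above Mlkl KO. Ubd, a ubiquitin-like modifier, was at 106, 59.8 and 133 against 36.1, 41.8 and 672 RPKM, with embryo 3 far above and embryos 1 and 2 below all Casp1-intact embryos.

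**Figure D3:**
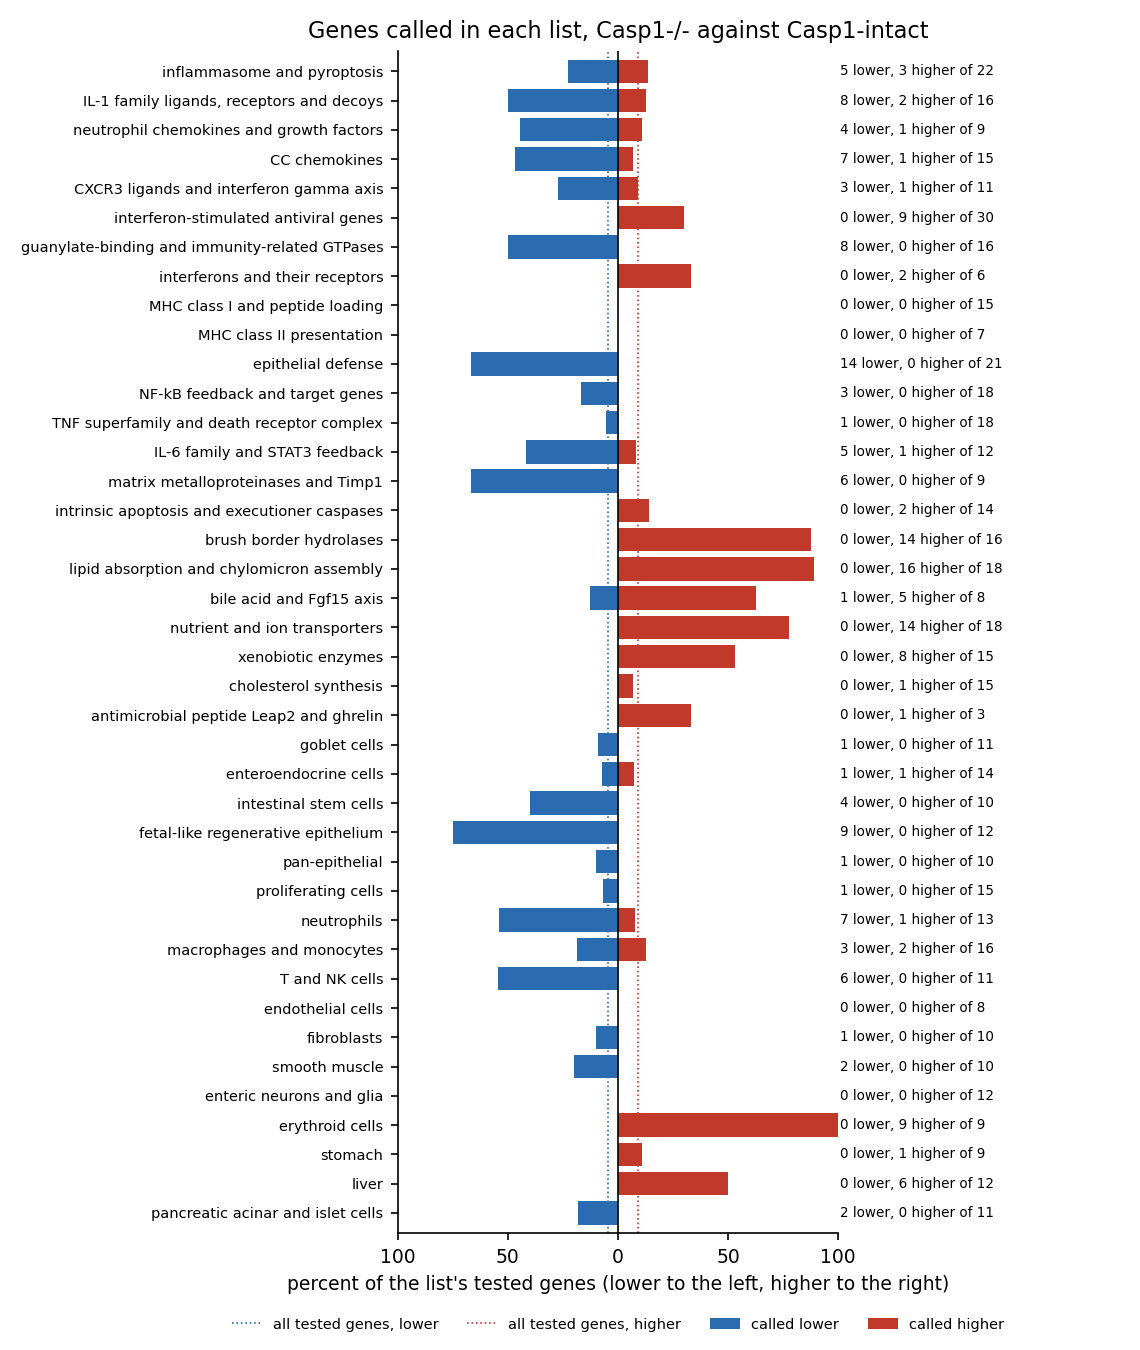
For each list of genes, the percent of its tested members called lower (left) and higher (right) in Casp1-/- embryos, with dotted lines at the shares over all tested genes (4.51% and 8.88%). Bars to the left are long for epithelial defense (14 of 21 lower) and the fetal-like epithelium (9 of 12), and bars to the right for lipid absorption (16 of 18 higher) and erythroid genes (9 of 9).

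NF-κB target and feedback genes showed the same dependence on embryo 3. Of 18 tested, 3 fell (Ptgs2, Tnfaip2 and Traf1) with a median of -0.55, and 9 fell without embryo 3 with a median of -0.96. Nfkbia, which encodes the inhibitor IκBα, was at 139, 130.1 and 131 RPKM against 58.1, 56.5 and 141, and Nfkb2 at 45.5, 49.6 and 44.7 against 18.1, 18.1 and 46.9. In both, embryos 1 and 2 were below every Casp1-intact embryo and embryo 3 was among or above them, with values of -1.22 and -1.37 without it. Ptgs2, the inducible cyclooxygenase, fell in all 3 (2.34, 8.84 and 3.83 against 0.939, 0.979 and 1.24 RPKM, -2.25, or -1.55 without Casp1-intact embryo 2). Of 18 genes of the TNF family and death receptor complex, Tnfrsf1b, the second TNF receptor, was the one that fell (17.6, 17.3 and 20.4 against 5.23, 5.64 and 9.43 RPKM, -1.45), and none rose. When embryo 3 was left out, 5 fell. Tnf itself was at 2.29, 3.74 and 3.63 against 0.583, 0.658 and 3.64. It was not called in the main fit but was called lower without embryo 3 (-2.37) and under another setting given below. The necroptosis kinase gene Ripk3 was at 50.4, 45.2 and 47.4 against 22, 24.1 and 52.5 (-1.05 without embryo 3).

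Of 12 genes of the IL-6 family and STAT3 feedback 5 fell and 1 rose, with or without embryo 3 (medians -0.48 and -0.58). Il6 was at 0.694, 1.2 and 0.642 RPKM against 0.0374, 0.037 and 0.0982 (-3.83 ± 0.494), and Il11, its relative in stroma, at 0.558, 0.866 and 0.695 against 0.0678, 0.201 and 0.213 (-2.12). The oncostatin M receptor gene Osmr (-1.65, or -2.24 without embryo 3) and the STAT3 feedback inhibitor gene Socs3 (52.5, 53.8 and 50.8 against 21.8, 22.3 and 25.1 RPKM, -1.18 ± 0.0794) fell too, and Il22ra1, the IL-22 receptor of epithelium, rose (1.17). Of 9 matrix metalloproteinases and Timp1, 6 fell and none rose, with a median of -2.30 (6 and -3.17 without embryo 3). Mmp7, which processes defensins in Paneth cells, fell from 141, 167 and 133 to 6.04, 3.87 and 23.1 RPKM (-3.75 ± 0.528), the collagenase gene Mmp13 from 10.5, 7.63 and 12.6 to 1.14, 1.11 and 2.89 (-2.59) and their inhibitor Timp1 from 26.5, 30.0 and 37 to 6.55, 5.26 and 7.19 (-2.30). None of these overlapped, and without embryo 3 Mmp7 was at -4.89 and Mmp13 at -3.19. Casp6, a caspase of the apoptotic cascade, rose from 22.1, 25.6 and 21.4 to 67.8, 94.2 and 50.3 RPKM (1.62), in a list of 14 genes of apoptosis whose median was 0.18.

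Genes that interferons induce divided into those that fell and those that did not. Of 30 interferon-stimulated antiviral genes 9 rose and none fell with all 3 embryos (median 0.64), whereas 5 fell and 1 rose with embryos 1 and 2 alone (median -0.32). The medians of the list over the mean of the Casp1-intact embryos were -0.48, -0.10 and 1.80 in embryos 1, 2 and 3. Isg15, a ubiquitin-like protein, was at 317, 165 and 327 RPKM against 151, 186 and 1257, and Irf7, the factor that amplifies interferon transcription, at 130.0, 94.1 and 128 against 54.6, 75.9 and 422. Both overlapped and neither was called with or without embryo 3. Mx1, an antiviral GTPase, was at 5.93, 3.74 and 8.28 against 8.39, 14 and 57.7 (2.15, and 0.90 and not called without embryo 3), and Ifit3, which binds viral RNA, at 44.2, 24.5 and 46 against 62.1, 89.6 and 313 (2.02, and 0.99 and not called without it). For these 2 genes all Casp1-/- embryos were above all Casp1-intact embryos. Zbp1, a sensor of Z-form nucleic acids, was at 47.6, 34.3 and 55.9 against 5.8, 7.87 and 75, and Bst2, which tethers virions, at 369.7, 273 and 405 against 102, 112 and 719. In both, embryos 1 and 2 were low and embryo 3 high. Neither was called in the main fit and both were called lower without embryo 3 (-2.75 and -1.71), Zbp1 also under another setting given below. Oas3 turned direction in the same way (0.42, and -1.52 without embryo 3).

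Several genes of the interferon γ response fell. Of 11 genes of its axis with the CXCR3 ligands 3 fell and 1 rose (median -0.27, or 4, 1 and -0.92 without embryo 3). Cxcl9 was at 31, 17.1 and 32.8 RPKM against 0.708, 0.467 and 1.98 (-4.69, or -5.52 without embryo 3), lower in all 3 Casp1-/- embryos, whereas the related ligand Cxcl10 was at 76, 51.9 and 85 against 25.5, 35.8 and 142, called lower only without embryo 3 (-1.21). Cxcl11 was at 1.16, 1.06 and 1.38 against 0.515, 0.723 and 6.79. Of 16 guanylate-binding proteins and immunity-related GTPases 8 fell and none rose (median -0.93, and 11 with -2.09 without embryo 3). Gbp2 was at 62.1, 40.0 and 73.1 RPKM against 5.62, 5.23 and 16.1 (-2.70 ± 0.317, edgeR adjusted p = 2.78e-06) and Iigp1 at 51.7, 35 and 54.3 against 5.33, 5.85 and 26.7 (-1.90), without overlap, and at -3.43 and -3.07 without embryo 3. Irgm1 (82.1, 57.1 and 81.7 against 34.2, 46.7 and 157) and Igtp (65, 44 and 65.8 against 27.8, 40.1 and 126) overlapped and were not called. Ifng had 9 reads in the 3 Casp1-intact embryos together and 1 in the Casp1-/- embryos and was not tested.

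Antigen presentation by MHC class I was called in none of 15 genes with all 3 embryos and in 9, all lower, without embryo 3 (medians -0.34 and -1.09). B2m, the light chain of class I, was at 1279, 1159 and 1398 RPKM against 548, 655 and 1649, so that embryos 1 and 2 were near the Mlkl KO mean of 571 and embryo 3 exceeded all Casp1-intact embryos. Of 7 class II genes none was called with all embryos and 4 were lower without embryo 3. H2-Ab1 was at 24, 27.3 and 29.1 against 11.8, 11.2 and 18.9 RPKM (-0.94), lower in each embryo and below the Mlkl KO mean of 28.5. Among interferons and their receptors 2 of 6 rose and none fell. Ifnlr1, the receptor through which epithelium senses interferon λ, rose from 3.19, 2.24 and 2.5 to 7.17, 8.78 and 8.18 RPKM (1.60 ± 0.12, edgeR adjusted p = 1.43e-08), and its partner Il10rb from 28.4, 25.3 and 28.4 to 56.7, 67 and 49.6 (1.08). Ifitm1, an antiviral membrane protein also made by epithelium, fell in all 3 embryos (142, 112 and 166 against 26.9, 19 and 35.9, -2.36).

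**Figure D4:**
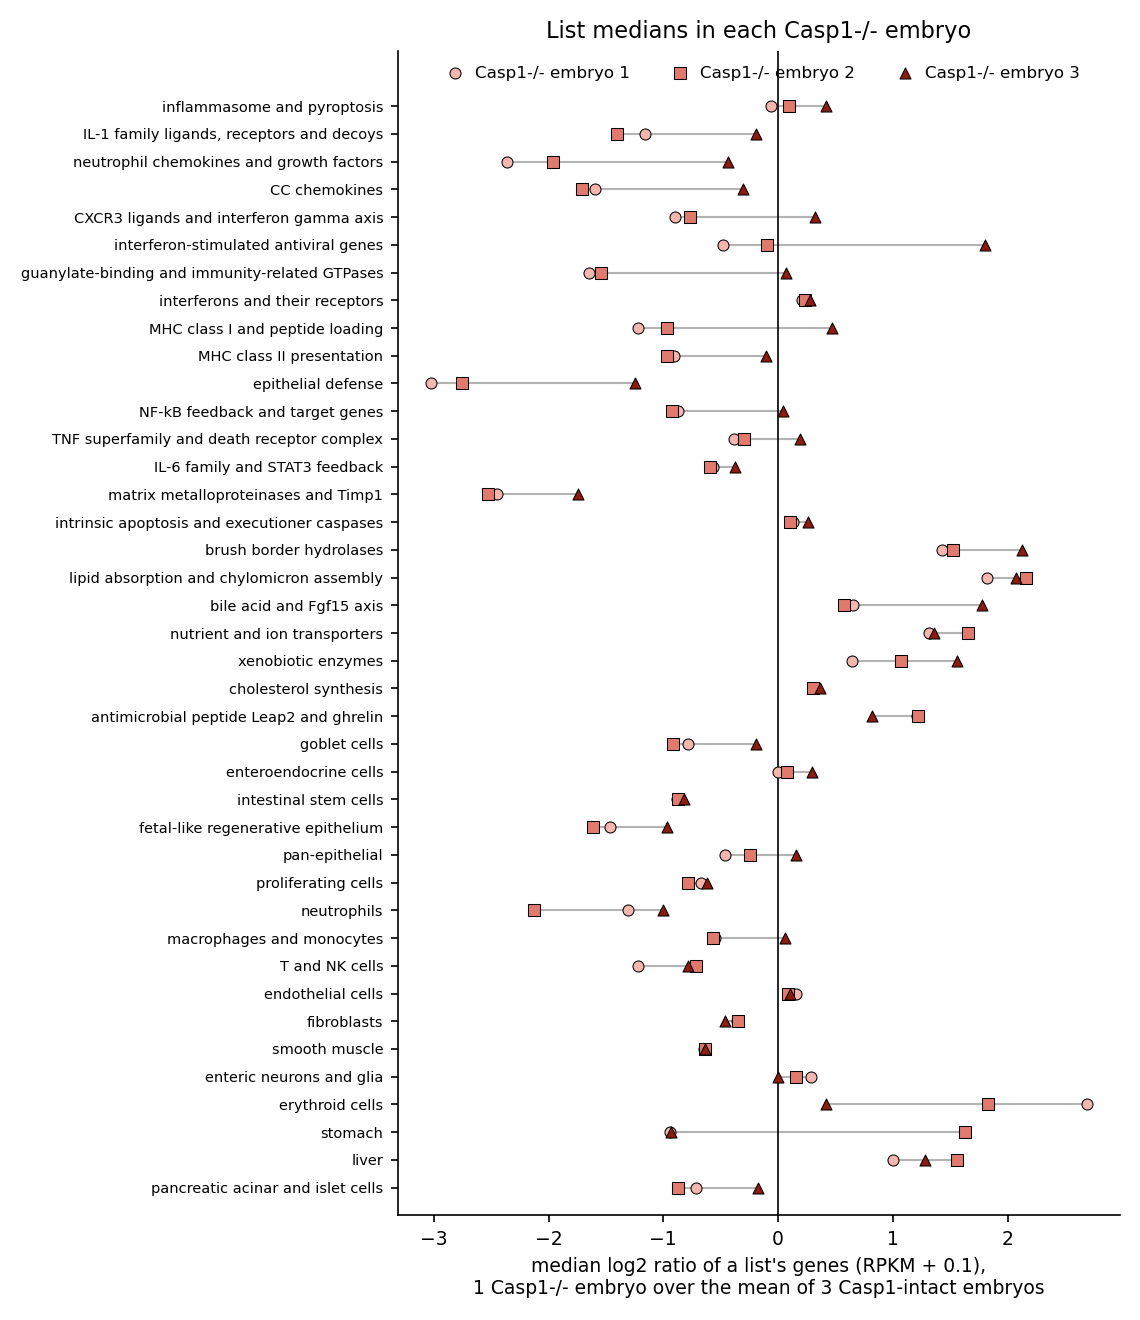
Median over each list of the log2 ratio of a single Casp1-/- embryo to the mean of the 3 Casp1-intact embryos, from RPKM plus 0.1. The triangle of embryo 3 lies to the right of embryos 1 and 2 for antiviral genes (1.80 against -0.48 and -0.10) and MHC class I (0.47 against -1.22 and -0.97), and to the left for erythroid genes (0.42 against 2.69 and 1.83).

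Most genes in the lists of the absorptive enterocyte rose. Of 16 brush border hydrolases 14 rose and none fell (median 1.98, or 12 and 1.96 without embryo 3). Of 12 tested liver genes 6 rose and none fell (median 0.97), with a summed level of 198 to 268 RPKM in Casp1-intact and 381 to 426 in Casp1-/- embryos, and their part in these rises was not tested. Alpi, the intestinal alkaline phosphatase, was at 58.2, 33.4 and 52.5 RPKM in Casp1-intact embryos, at 217, 324 and 347 in Casp1-/- embryos (2.62 ± 0.19, edgeR adjusted p = 9.74e-09) and at 518 ± 37.8 in Mlkl KO embryos. The peptidases Ace (26.6, 12.3 and 21.2 against 158, 197 and 233) and Anpep (187, 124 and 124 against 269, 326 and 576) rose by 3.29 and 1.43. None of the groups overlapped. The increase of Lct, given above, was the highest of the list.

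In lipid absorption and chylomicron assembly 16 of 18 genes rose and none fell (median 2.13, and 2.09 without embryo 3). Fabp2, the intestinal fatty acid binding protein, rose from 133, 81.5 and 117 to 2614, 2890.4 and 2840.2 RPKM (4.65 ± 0.199, edgeR adjusted p = 3.74e-11). The apolipoprotein genes Apoa4 (883, 335 and 653 against 6624, 8215 and 9870.3) and Apoa1 (1547, 770.2 and 1058 against 4871, 5444 and 8697) rose by 3.72 and 2.49. All 18 genes of the list had groups without overlap, against 53.2% of all tested genes. Their Casp1-/- levels were nearer to Mlkl KO, where the means were 6475 for Fabp2, 14089.7 for Apoa4 and 8648 for Apoa1.

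Of 18 nutrient and ion transporters 14 rose and none fell (median 1.51). Without embryo 3 the number that rose was also 14, and the sulfate transporter gene Slc13a1 was called lower (-1.02). Slc27a4, a fatty acid transporter, rose from 23.7, 18.1 and 18.9 to 97.7, 132 and 104 RPKM (2.46 ± 0.122), and the cystine and basic amino acid transporter genes Slc3a1 (57.4, 31.8 and 34.1 against 105, 119 and 158) and Slc7a9 (53, 31.9 and 39.6 against 102, 115 and 137) by 1.63 and 1.51. The iron exporter gene Slc40a1 was higher in each Casp1-/- embryo (88.1, 86 and 59.6 against 119, 136 and 152) but at 0.80 remained below the threshold. Of 15 xenobiotic enzymes 8 rose (median 1.07, or 6 and 0.93 without embryo 3), among them the glutathione transferase gene Gstm3 (1.91, 3.14 and 1.43 against 21.2, 31.8 and 45.6 RPKM, 3.93) and the carboxylesterase gene Ces2e (16.3, 12.7 and 12.7 against 65.8, 81.6 and 76.5, 2.43). Cholesterol synthesis stood near the center of all genes, with 1 of 15 higher (Insig1, 1.82) and a median of 0.25.

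The bile acid axis split by gene. Of 8 genes 5 rose and 1 fell (median 1.24, or 4, 1 and 0.45 without embryo 3). Nr0b2, a nuclear receptor without a DNA-binding domain that bile acids induce, had 3 reads in the Casp1-intact embryos and 191 in the Casp1-/- embryos (ratio 68.87, interval 23.21 to 336.9). Slc51a, a subunit of the basolateral bile acid exporter, rose from 53.2, 43.7 and 35.8 to 98.2, 117 and 149 RPKM (1.46), and the transcription factor gene Gata4, which marks the jejunum, from 12.4, 16 and 15.5 to 24.4, 34.5 and 29.7 (1.02). Slc10a2, the ileal bile acid importer, fell from 12.6, 7.95 and 5.26 to 1.54, 1.11 and 4.04 RPKM (-1.95 ± 0.366, or -2.69 without embryo 3). The ileal genes Fabp6 (7.48, 6.81 and 9.18 against 6.07, 4.03 and 129.9) and Fgf15 (0.215, 0.0988 and 0.221 against 0.301, 0.0248 and 10.4) were high in embryo 3 alone and were called higher only with it, at 2.56 and 4.28, against -0.64 and -0.14 without it. Which length of intestine each library holds is not given in the sources used here. Ghrl, the ghrelin gene, was at 20.8, 16.2 and 29.2 against 43.1, 50.0 and 37.7 RPKM (0.98, not called).

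Of the pan-epithelial genes 1 was called, whereas most genes of the fetal-like state and 4 of 10 stem cell markers fell. Of 10 pan-epithelial genes 1 fell (Krt19, 773, 879.8 and 752 against 316, 324 and 531 RPKM, -1.04) and none rose, with a median of -0.09. Without embryo 3 the keratin gene Krt8 was called lower as well (-1.19) and the median was -0.37. Epcam was at 514 to 527 against 472 to 687. Of 12 genes of the fetal-like regenerative epithelium 9 fell and none rose (median -1.21). Ly6a, its surface marker Sca-1, was at 443, 395 and 517 RPKM against 9.06, 8.33 and 56.9 (-4.19 ± 0.512, edgeR adjusted p = 4.2e-06), and the 2 lower embryos were below the Mlkl KO mean of 10.1. The change of Ly6a was -5.70 without embryo 3. Ly6d was at 112, 51.2 and 62 against 2.14, 0.967 and 54.7 (-1.97), where embryo 3 overlapped and without which the change was -5.59, and Anxa1 fell in all 3 (49.8, 41.4 and 50.5 against 19, 14.3 and 23.2, -1.33).

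Of 10 intestinal stem cell markers 4 fell and none rose (median -0.89 with and without embryo 3). Lgr5, the Wnt-driven receptor of crypt base cells, was at 5.73, 10.6 and 5.72 RPKM against 2.66, 2.11 and 1.86 (-1.73 ± 0.23), and Ascl2, a transcription factor of the same cells, at 12.2, 15 and 17.2 against 4.2, 3.43 and 6.4 (-1.66). The crypt glycoprotein gene Olfm4 (95.5, 151 and 99.4 against 48.8, 52.3 and 41.4, -1.28) and the ephrin receptor gene Ephb2 (-1.05) fell as well, all without overlap. Of 15 genes of proliferating cells 1 fell far enough to be called, Rrm2 (52.7, 62.2 and 53.3 against 21.1, 19.4 and 25.3 RPKM, -1.35), but all 15 were lower in every Casp1-/- embryo than in every Casp1-intact embryo, with a median of -0.70. Groups without overlap in either direction were seen for 53.2% of all tested genes. Top2a, a topoisomerase of dividing cells, was at 76.3, 85 and 72.5 against 41.8, 40.5 and 43.5 (-0.89). Of 11 goblet cell markers Muc2, the secreted mucin, fell (188, 145 and 132 against 32.2, 30.1 and 107 RPKM, -1.46, or -2.31 without embryo 3) and none rose, and without embryo 3 Zg16 and Spink4, also secreted by goblet cells, were called lower too (-2.04 and -1.05). Of 14 enteroendocrine markers the peptide gene Tac1 fell (-1.29) and Neurog3, the factor that specifies these cells, rose from 0.421, 0.348 and 0.727 to 2.39, 3.53 and 1.73 RPKM (2.34).

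None of 8 endothelial and none of 12 enteric neuron and glia markers were called, with medians of 0.09 and 0.14. Of 10 fibroblast markers Fn1, fibronectin, fell (65.7, 82.9 and 81.2 against 33.9, 30.7 and 33.9 RPKM, -1.22), and of 10 smooth muscle markers Des, desmin (206, 288 and 268 against 99.9, 111 and 134, -1.15), and Synm (-1.10). The groups did not overlap for any of the 10 smooth muscle genes, against 53.2% of all tested genes, and the median of the 10 was -0.62. All 9 tested erythroid genes rose (median 1.89, or 8 and 2.31 without embryo 3). The groups did not overlap for 4 of the 9, against 53.2% of all tested genes. The summed level was 745 to 1544 RPKM against 7178, 3517 and 1249. Hbb-bs, a β-globin, was at 499, 676 and 1065 RPKM against 4595, 2194 and 799.7, high in embryos 1 and 2 and within the range of the Casp1-intact embryos in embryo 3. The part of blood in the other results was not tested.

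Genes close to Casp1 on chromosome 9 can carry linked differences of the targeted chromosome. Within 5 Mb of Casp1, 37 genes were tested and 9, the deleted Casp1 among them, were called (24.3%, against 13.4% of all tested genes). Casp1, Casp12, Mmp7, Mmp8, Mmp10, Mmp12, Mmp13 and the pseudogene Cbx3-ps8 were lower and Pgr, the progesterone receptor gene, was higher. The 5 metalloproteinase genes lie in 1 cluster there. Casp12 was at 4.71, 4 and 3.85 RPKM against 2.23, 1.65 and 1.94 (-1.11). Casp4, the caspase-11 gene that starts 1563 bases from Casp1, was at 35.4, 24.9 and 33.6 against 21.6, 21 and 65.8 RPKM (0.20 ± 0.307, and -0.56 without embryo 3, not called in either fit), so reads on it remained after the deletion. Whether linkage has a part in these changes was not tested.

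Compared with Mlkl KO embryos with the same tests, 4078 genes (22.2%) differed in the Casp1-intact embryos, 1726 higher (9.40%) and 2352 lower (12.8%), and 796 (4.34%) in the Casp1-/- embryos, 396 higher (2.16%) and 400 lower (2.18%). These comparisons share libraries with the one above, so their counts are given side by side only, and the Casp1-/- libraries alone differ from Mlkl KO in the number of their titles. On the log2 scale against Mlkl KO, Reg3g was at 10.56 with Casp1 and 6.37 without, Cxcl10 at 6.12 and 6.05, Ccl20 at 3.39 and 4.66, Gzmb at 4.82 and 0.09, Serpina3n at 5.96 and -1.85, Fabp1 at -7.51 and -0.87, Lct at -8.54 and -1.20 and Lgr5 at 1.48 and -0.25. Without embryo 3 the Casp1-/- values were 4.91 for Cxcl10, 4.17 for Ccl20, 5.19 for Reg3g and -2.66 for Serpina3n. Ccl20 thus lay further from Mlkl KO without Casp1 in both fits and the others nearer, though for Cxcl10 the distances were apart only without embryo 3.

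The same deletion was sequenced on the Casp8 C362A KI Mlkl KO background, where caspase-8 has no protease activity and Cflar is intact, with no library in common. There 2196 of 19408 genes were called (11.3%), 1086 higher (5.60%) and 1110 lower (5.72%). Among the 18196 genes tested on both backgrounds the log2 fold changes had r = 0.70, across genes that are not independent and with libraries whose titles name different sets. Of the genes called lower, 460 were shared, 55.9% of the 823 of the D387A background and 47.9% of the 960 of the C362A background, and of those called higher 727, 45.3% of 1606 and 69.8% of 1042. No gene went from lower with D387A to higher with C362A, and 3 went the other way (Bdh2, Cldn6 and Scrt1). Without embryo 3 these numbers were 6, among them Ccl5, Plscr2 and Ubd, and 4, with Aqp9 added. The backgrounds differ in Cflar and in the set of libraries as well as in the Casp8 allele, which cannot be told apart. The difference between them, tested in 1 fit of 30 intestines, was called for 1125 of 19643 genes (5.73%), 963 with the more positive change on the D387A background (4.90%) and 162 with the more negative one (0.825%).

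By list, the medians of log2 fold changes with D387A and with C362A were -2.00 and -1.85 for epithelial defense, -1.83 and -3.13 for neutrophil chemokines and -2.30 and -2.58 for metalloproteinases. Without embryo 3 the D387A medians of these lists were -3.34, -3.01 and -3.17. For lipid absorption they were 2.13 and 1.41, with 9 of 18 differences called, all more positive with D387A, and for brush border hydrolases 1.98 and 1.01, with 6 of 16. Fabp1 rose by 6.63 and 2.81 (difference 3.85 ± 0.308, edgeR adjusted p = 3.46e-08), and Lct by 7.33 and 2.69 (difference 4.66). Of the 10 stem cell markers 4 fell with D387A, none was called with C362A and 3 differences were called. With C362A Lgr5 was at -0.19 (difference -1.51 ± 0.3) and Olfm4 at 0.21 (difference -1.47). Ly6a fell by 4.19 and 1.61 (difference -2.56, or -4.06 without embryo 3). Il1a rose with D387A and was at -0.10 with C362A (difference 2.41, or 1.62 without embryo 3), Cxcl2 was at 0.26 and -2.70 (difference 2.98, or 2.13 without it), and Lyz2 at -0.13 and -2.16 (difference 2.06). For Ccl5 the values were -0.87 and 1.80 (difference -2.65, or -4.39 without embryo 3), and for Casp1 itself -8.68 and -10.98, a difference of 2.30 that was not called (adjusted p = 0.0836, edgeR).

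**Figure D5:**
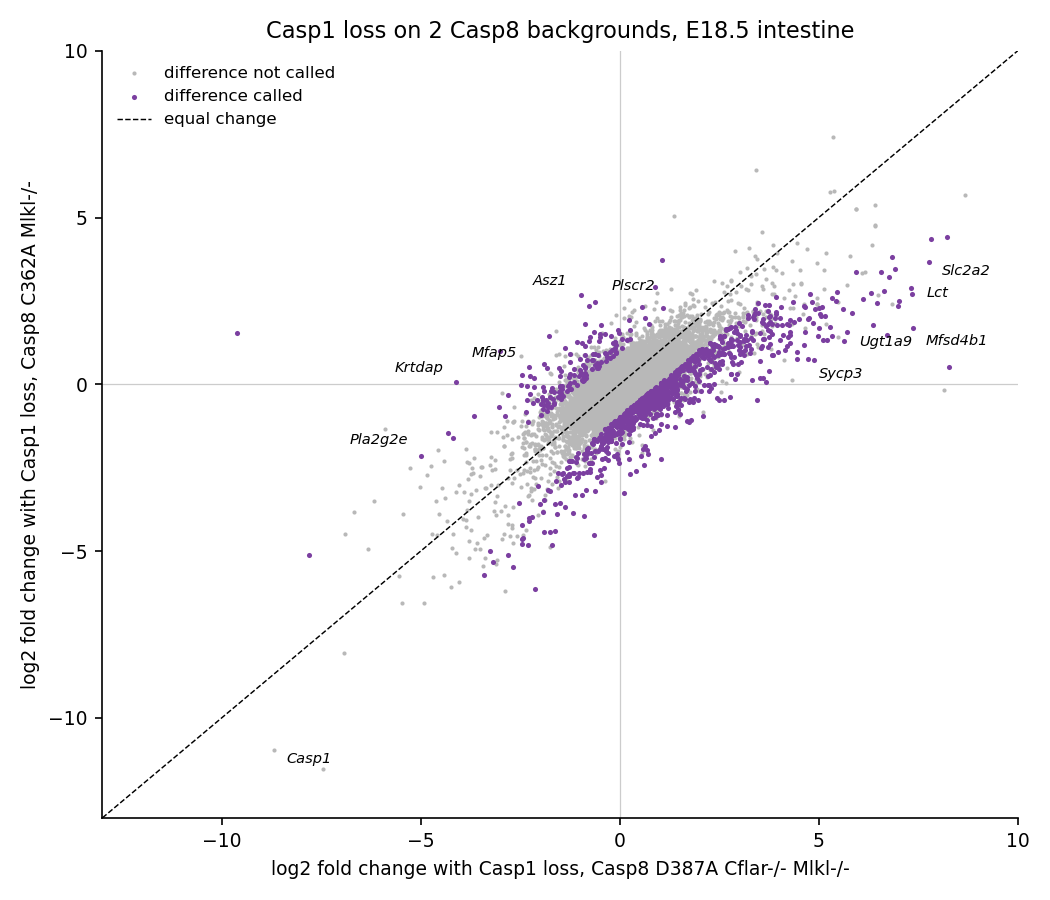
Log2 fold change upon Casp1 loss on the Casp8 D387A Cflar Mlkl background (x axis) and on the Casp8 C362A Mlkl background (y axis) for 18196 genes, each with n = 3 against 3, and a dashed line of equal change. Purple marks genes whose difference was called, among which Lct (7.33 and 2.69) and Slc2a2 (7.78 and 3.66) lie below the line and Plscr2 (-0.63 and 2.46) above it.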

How the data were processed

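Intestines were sequenced as poly(A) libraries and the authors deposited, per sample, whole-number read counts per gene with RPKM values. Per the labels and methods the authors aligned single-end reads with GSNAP to GRCm38 and kept unique alignments. The labels name an unstranded kit and the methods a stranded one, so strand use is not known, and antisense or overlapping genes and close paralogs are uncertain. The deposited RPKM values were used only to read the library total behind them, of which 85.0% to 88.0% fell on genes. Symbols were taken from GENCODE M21.

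RPKM was recomputed from counts, deposited gene widths and library sizes scaled by TMM. Counts were tested with edgeR 4.0.16 (R 4.3.3, quasi-likelihood test, TMM, filterByExpr at 10 reads, prior count 0.125) over the 18 intestines of the D387A set, 12 of the C362A set, and 30 for the difference, with Benjamini-Hochberg adjustment over all genes tested. Standard errors are of the log2 fold change. limma 3.58.1 and DESeq2 1.42.0 were alternatives. The code was tested on simulated data. Genotype groups of 3 were taken from the labels, which call them biological replicates. By sex-linked transcripts each group compared held both sexes, and the 3 embryos without Ifnar1 were male.

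The compared groups, gene lists and tests were chosen with earlier results of these data known. Genes named were the targeted genes, the 10 deepest falls and highest rises among called genes without overlap that kept the call in all leave-outs and had a mean of at least 1 RPKM in the higher group, in each list the furthest called fall and rise and the 4 most abundant members (any member of lists of 12 or fewer), genes the study names for intestine, the 5 largest differences between backgrounds each way, and called genes within 5 Mb of Casp1. Named in addition, after their values were seen, were Casp4, Cx3cr1, Duox2, Elane, Ctsg, Gsdme, Ifit3, Itgam, Ly6c2, Mefv, Naip6, Nlrp3, Tnfaip2, Traf1 and genes whose call changed without embryo 3 or differed between backgrounds (Aqp9, Bdh2, Cd68, Cldn6, Fcgr1, Krt8, Scrt1, Slc13a1, Spink4, Zg16). A gene with 1 to 3 reads in a group is given as a ratio of reads with an exact 95% interval. Results for some genes that met these rules are not reported here.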

Additional observations from a re-analysis of the deposited data

Results flagged for a closer look

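The effect of Casp1 loss differed between the Casp8 D387A Cflar Mlkl and Casp8 C362A Mlkl backgrounds for 1125 genes when the difference itself was tested in edgeR. The values below are that difference, the log2 fold change on the D387A background minus that on the C362A background. The 5 furthest below zero were those of Krtdap (-4.16), a keratinocyte peptide gene, the germ cell gene Asz1 (-3.61), the scramblase gene Plscr2 (-3.06), Pla2g2e (-2.81) and the microfibril gene Mfap5 (-2.75). Asz1 and Plscr2 were not called on the D387A background with all embryos, although Plscr2 was called lower without Casp1-/- embryo 3 (-1.40), and both rose on the C362A background. The 5 furthest above zero were those of Mfsd4b1 (5.73), Lct (4.66), the glucuronosyltransferase gene Ugt1a9 (4.16), Slc2a2 (4.15) and the meiotic gene Sycp3 (4.01).

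Among enterocyte and liver-type genes named above, those with a called difference above zero were Cyp2c70 (4.48), Fabp1 (3.85), Abcb11 (3.83), Prodh2 (3.58), Sdr16c5 (3.51), Acot3 (3.06), the protease inhibitor gene Serpina1a (3.04), Nr0b2 (2.60), Fabp2 (2.35), Ace (2.26), Apoa4 (2.12), Slc27a4 (1.32) and Alpi (1.18). The difference of Leap2 was 3.01 and not called (edgeR adjusted p = 0.132). Immune genes with a difference above zero were Cxcl2 (2.98), Il1a (2.41), Acod1 (2.37), Mefv (2.34), Cxcr2 (2.18), Lyz2 (2.06), Ly6c2 (2.00), Nlrp3 (1.56), Tnfaip2 (1.32) and Ifnlr1 (1.09), with the erythroid gene Alas2 at 1.99. The dehydrogenase gene Bdh2 (2.88), the claudin gene Cldn6 (2.705), the aquaporin gene Aqp9 (3.30) and the repressor gene Scrt1 (2.45) had differences above zero too. Differences below zero were those of Serpina3n (-2.69), Ccl5 (-2.65), Ly6a (-2.56), Ccl25 (-1.69), Iigp1 (-1.69), Trac (-1.63), Lgr5 (-1.51), Olfm4 (-1.47), Ascl2 (-1.41) and Timp1 (-1.14).

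When each of the 12 libraries was left out in turn, 15 of the 48 single differences listed here lost the call at least once. Acod1 did so without Casp1-/- embryo 3 alone (1.26), Alpi and Ifnlr1 without Casp1-intact embryo 2 alone and Ly6c2 and Cldn6 without Casp1-/- embryo 1 alone, all on the D387A background. Abcb11, Alas2, Cxcr2, Cyp2c70, Iigp1, Nr0b2, Olfm4, Sdr16c5, Serpina3n and Timp1 did so without any of several libraries. Abcb11 lost it in 10 of the 12 leave-outs, Serpina3n in 8 and Cxcr2 in 7. The highest values over the leave-outs were 6.73 for Sdr16c5, 6.40 for Cyp2c70 and 5.09 for Sycp3, and the lowest for Alas2 was 1.12. Without Casp1-/- embryo 3 the differences of Plscr2, Mfap5, Ccl5, Iigp1, Ly6a and Serpina3n were further below zero (-3.82, -3.37, -4.39, -2.85, -4.06 and -3.50), and those of Cxcl2 and Il1a nearer to it (2.13 and 1.62).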

How the results depend on the processing

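With limma, DESeq2, other size factors, no filter, a prior count of 2, only the groups compared or sex as a covariate, Casp1 loss was called for 2227 to 2622 genes. A filter at a mean of 50 reads left fewer genes to test and called 1581 (1081 higher, 500 lower), and 524 rather than 796 for Casp1-/- against Mlkl KO. Leaving out 1 library gave 2122 to 2894 genes, 1450 to 1734 higher and 672 to 1160 lower. The same gave 1988 to 2162 on the C362A background, 850 to 1615 for the difference, and 589 to 987 for Casp1-/- and 3911 to 4127 for Casp1-intact embryos against Mlkl KO. The alternatives for the comparisons with Mlkl KO were chosen after seeing the data.

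Of 172 genes named, 15 had a log2 fold change of the other sign without Casp1-/- embryo 3, 5 of them called in at least 1 of these fits. Over the 6 leave-outs the log2 fold changes of these 5 ran from -1.35 to 1.84 for Ubd, -1.52 to 0.91 for Oas3, -0.13 to 1.70 for Ltf, -0.14 to 4.87 for Fgf15 and -0.64 to 3.11 for Fabp6. Without that embryo 25 genes gained and 7 lost a call, and 33 called in both fits moved by over 1.5 times. When another library was left out, 17 called genes moved that far (Abcb11, Alas2, Csf2, Cxcr2, Cyp2c70, Fgf15, Ido1, Leap2, Mfsd4b1, Nr0b2, Pga5, Ptgs2, Reg2, Retnlb, S100a8, S100a9 and Sdr16c5), and 17 lost a call in at least 1 fit: Cldn6, Ephb2, Fabp6, Fgf15, Gata4, Gsdme, Hbb-bs, Il10rb, Il22ra1, Ins1, Krt19, Ltf, Ly6c2, Ly6d, Mmp10, Scrt1 and Traf1. In the same fits 10 gained one: Csf3, Cxcl11, Fcgr1, Ghrl, H2-Ab1, Isg15, Marco, Nos2, Slc13a1 and Ubd. Under another test, normalization, filter or covariate, or in a fit of only the groups compared, 10 lost a call in at least 1 setting (Cldn6, Fabp6, Fgf15, Gata4, Gsdme, Ltf, Ly6d, Mmp10, Pga5 and Saa3) and 10 gained one (Ccl5, Csf3, Cxcl1, Cxcl11, Ghrl, Nos2, Slc13a1, Tnf, Ubd and Zbp1).

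A fit with the replicate number as a block called 2431 genes. Same-numbered embryos deviated together with r of 0.02, 0.01 and 0.01, so the numbers do not pair the embryos.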

Other observations

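Markers of neighboring organs were read as values only. Among the liver genes Serpina1a, a protease inhibitor, was at 0.137, 0.0283 and 0.0758 RPKM against 2.19, 3.81 and 1.3 in the Casp1-/- embryos, and the erythroid heme synthesis gene Alas2 at 4.43, 7.99 and 8.54 against 62.2, 27.9 and 8. Of 9 stomach genes 1 was higher: Pga5, a pepsinogen gene, had 1 read in the Casp1-intact embryos and 116 in the Casp1-/- embryos (ratio 125.5, with an exact 95% interval of 22.08 to 4998 for counting error only). Of 11 genes of pancreas 2 were lower, both insulin genes, and 1 without Casp1-/- embryo 3. Ins1 had 88 reads against 1 (ratio 81.36, interval 14.23 to 3249), and its call was lost without Casp1-intact embryo 1 or Casp1-/- embryo 1 or 2, while its fitted log2 fold change stayed between -7.81 and -5.44 over the 6 leave-outs.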
